A study of Mus musculus with 2031 samples.

Results

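Endothelial cells line the blood vessels of the brain and mural cells, the pericytes and smooth muscle cells, wrap around them from outside. Both were caught beside the astrocytes in a sort of cells from the cortex and hippocampus of C57BL/6J mice at postnatal day 56, and these vascular cells made up 8.27% of the 1982 typed cells among the 2030 cells with a file here. The members are the cells that the authors' own list of cell types names Endothelial (30 cells) or Mural. The mural cells used are all but 1 of those in the list, which was not analysed here. The cells came from 4 suspensions, and every suspension gave both types. Suspensions 1C and 2C are from cortex, each from 1 animal of the same litter, and 1H and 2H are from hippocampus, each pooled from 4 littermates of other litters, so that region, litter and pooling cannot be told apart. Suspension 1C gave 9 endothelial and 27 mural cells, 2C gave 3 and 12, 1H gave 6 and 48, and 2H gave 12 and 47. All were sorted as living single cells that bound an antibody against ACSA-2, an astrocyte surface antigen carried by the sodium pump subunit ATP1B2, and that lacked the oligodendrocyte antigen O1. They are therefore the vascular cells that pass a gate set for astrocytes, not a sample of all vessels.

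The endothelium of the brain is the site of the blood-brain barrier: claudin and occludin junctions seal the gaps between cells, few vesicles cross them, and nutrients enter through carriers of the solute carrier family while efflux pumps return foreign compounds to the blood. Pericytes share a basement membrane with the endothelium and are held on the vessel by PDGF-B, which endothelial cells release and which binds PDGFRB on the mural side. Further signals between the layers, through Notch, angiopoietin, BMP and nitric oxide pathways, set vessel calibre, quiescence and barrier properties.

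Each cell was a Smart-seq2 library, in which the full-length cDNA of a single cell is amplified in its own well without molecular tags, so counts are reads after PCR. The 30 endothelial cells held between 731215 and 2169971 gene counts and the mural cells between 632585 and 2544732, and no 2 cells had the same counts. Counts were summed per type and suspension into 8 sums, with between 5287462 and 15636984 gene counts for the endothelial sums and between 14794597 and 65239359 for the mural sums. Levels are given as counts per 1000000 (CPM) of a sum after TMM scaling, a log2 fold change above 0 means higher in endothelial cells, and where 4 values follow a gene they are those of 1C, 2C, 1H and 2H in that order. The median number of genes with a count, endothelial minus mural, was 612, 1162, 375.5 and 796, a mean difference of 736 ± 331.9 (SD, n = 4). The log2 ratio of gene counts to counts of the ERCC spike-in RNAs, which each well received, differed by 0.55 ± 0.19 (SD, n = 4), and the percentage of reads outside annotated exons by -1.31 ± 0.52 percentage points (SD, n = 4). Each of the 3 differences had the same sign in 4 of 4 suspensions, and an exact two-sided sign-flip test gave the smallest p that 4 pairs allow, which is above 0.05. Without 13 endothelial wells rich in mural transcripts, described below, the mean difference in genes went from 45.1% to 19.1% of the mural median, and the others were 0.20 on the log2 scale, with the sign turned in 2C, and -1.70 percentage points.

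The labels were checked against the markers by which the types are known. Flt1, the VEGF receptor 1, stood at 3365, 3103, 3468 and 3598 CPM in the endothelial and at 230.8, 89.8, 180.96 and 358.96 CPM in the mural sums. Cd34, a sialomucin of the endothelial surface, stood at 2441, 781, 1522 and 1886 against 60.05, 0, 40.6 and 152.7 CPM, and the adhesion molecule Pecam1 at 794, 1627, 1403 and 1149 against 0.0314, 0, 59.4 and 0.0646 CPM. Pdgfrb, the PDGF receptor of mural cells, had the opposite order, with 523.1, 1560.3, 397.8 and 1162 CPM in the endothelial and 4737, 3311, 4712 and 4753 CPM in the mural sums. None of these 4 genes overlapped between the types, and since the types were named from such genes the values are a description of the labels and not a test. The other markers followed the labels less uniformly, as Itga8 had a count in 12.7% of mural cells and Des in 35.1%.

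The endothelial label did not exclude mural transcripts. For each cell the counts of 25 mural identity genes were added, among them Pdgfrb, Rgs5, Kcnj8, Vtn and Atp13a5. The summed level had a median of 77020.2 CPM over the mural cells, and 13 of the 30 endothelial cells lay above 25% of that median, at 20603 to 56173 CPM. The other 17 lay between 1551 and 11208 CPM, so that no endothelial cell had a value between 11208 and 20603 CPM. Of the 13 wells, 5 were from 1C, 2 from 2C, 1 from 1H and 5 from 2H. Of the endothelial markers, Flt1, Cldn5 and Pecam1 were counted in 13 of these 13 wells and Cd34 in 12. Over the 30 cells the level of the mural list went with the number of genes detected (Spearman rho 0.67) and against the level of the endothelial list (rho -0.84), while its rho with the total gene count was 0.10. These are descriptions over cells that share suspensions, and 2 summed levels of 1 library are bound to each other by its total. Conversely, 5 mural cells (3.73%) lay above 25% of the endothelial median of the endothelial list. The lowest mural cells of 1C, 1H and 2H, at 13533, 17257 and 7108 CPM of the mural list, lay below 25% of the mural median. These cells held 0, 1123 and 76.6 CPM of the endothelial list. The source of the mural transcripts in the 13 wells was not tested. Since an endothelial sum is fed by these wells, levels without these wells are also given below for the mural genes that edgeR called and are named, and for some of the other mural genes.

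**Figure D1:**
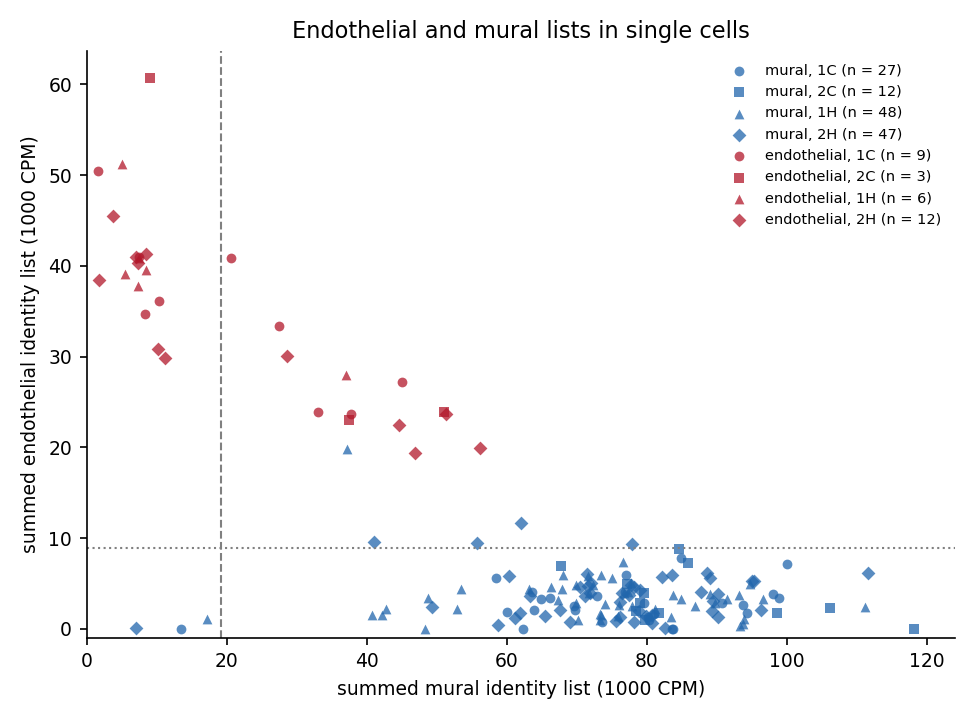
Summed level of the mural identity list (25 genes, horizontal axis) and of the endothelial identity list (25 genes, vertical axis) in each cell, in units of 1000 CPM of the cell, coloured by type and with a marker for each suspension. Dashed and dotted lines mark 25% of the mural and of the endothelial median, and 13 of 30 endothelial cells stand to the right of the dashed line, at 20603 to 56173 CPM, with 5 mural cells above the dotted line.

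Genes of further cell types were counted in few cells, apart from those of astrocytes and fibroblasts. The red blood cell list had no count in any endothelial cell and counts in 3 mural cells, the perivascular macrophage list in 1 endothelial and 1 mural cell, the microglia list in 8 and 26, the neuron list in 1 and 8, and the oligodendrocyte list in 3 and 17. The astrocyte list had a median of 978 CPM in endothelial, 4189 CPM in mural cells and 67687 CPM in the 1781 typed astrocytes, and 18 mural cells and no endothelial cell lay above 10% of the astrocyte median. Without those cells edgeR made 12 calls, 10 in endothelial and 2 in mural cells. Fibroblast genes were counted in 13 endothelial and 82 mural cells, with a highest value of 20990.4 CPM in a mural cell, and the part of such cells in the mural sums was not tested. The fibroblast list includes Col1a2, which is also in the mural identity list, so these counts are not of fibroblast genes alone.

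Across 8478 genes that passed the low-count filter, 28 passed an adjusted p (Benjamini-Hochberg) of 0.05 in the quasi-likelihood test of edgeR with the suspension as a block, 16 of them higher in endothelial cells (0.189% of the genes tested) and 12 higher in mural cells (0.142%). The sums of the 2 types did not overlap for any of the 28. DESeq2 on the same sums called 26.02% of its genes, 5.51% higher in endothelial and 20.5% higher in mural cells. The types were found by clustering these same counts, so an adjusted p here is not independent evidence that the types differ. It sets a difference against a spread between suspensions that the tests share in part over genes. A small value therefore does not show that every suspension agreed on a gene, and some limma calls named below had overlapping sums. The test had few residual degrees of freedom (3) and a common biological coefficient of variation of 1.70. A moderated test of limma on the mean log2(CPM + 1) of the cells of each sum, where every cell counts equally, called 544 genes, 5.17% of those tested being higher in endothelial and 1.25% higher in mural cells, and 25 of the 28 edgeR calls were among them with the same sign. The sums did not overlap for 4.14% of genes with the endothelial sums above and for 9.27% with the mural sums above, and a gene was higher in the endothelial sum of 4 of 4 suspensions for 6.42% and in the mural sum for 17.2%. The median log2 fold change over all tested genes was -1.18 in edgeR and 0.26 in limma, so the log2 fold changes of the lists below are to be read against those medians. In CPM without TMM scaling, the endothelial level had a median of 93.8% of the mural level over the same genes. The lists and their members were chosen with earlier results of these data known. Several lists share members, also with the 2 identity lists, so their counts are not independent of each other. A gene could also pass the low-count filter through the type where it is high. The shares of list members set beside those of all genes are therefore descriptions and not tests. Leaving out 1C left 7 calls, all higher in endothelial cells, and leaving out 2C, 1H or 2H left 0, with 6.25%, 4.15% and 4.59% of the genes at an unadjusted p under 0.05 in edgeR. All 28 genes kept their direction in each of these 4 fits. Without the 13 endothelial wells rich in mural transcripts, 5 genes were called higher in endothelial and 27 higher in mural cells, 9 of them among the 28. That fit holds 4, 1, 5 and 7 endothelial cells in 1C, 2C, 1H and 2H, so its sum of 2C is a single cell, and the wells were left out for their mural genes, so that larger differences of mural genes without them follow from the choice and are descriptions. Of the endothelial calls named below, edgeR then no longer called Slc2a1 (adjusted p = 0.07), Itga6 (0.07), Sgms1 (0.11), Flt1 (0.11), Pltp (0.22), Egfl7 (0.26), Selenop (0.26), Tsc22d1 (0.3), Abcg2 (0.33) and Slc3a2 (0.55), and Ushbp1 and Nebl did not pass its low-count filter. Those 10 genes kept their direction, and for the 9 other than Itga6 the log2 fold changes were 2.31 to 4.70 with all wells, with SE of 0.18 to 0.46, and 1.88 to 4.56 without the 13, with SE of 1.09 to 2.31. The median log2 fold change over all tested genes was -4.82 in that fit.

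**Figure D2:**
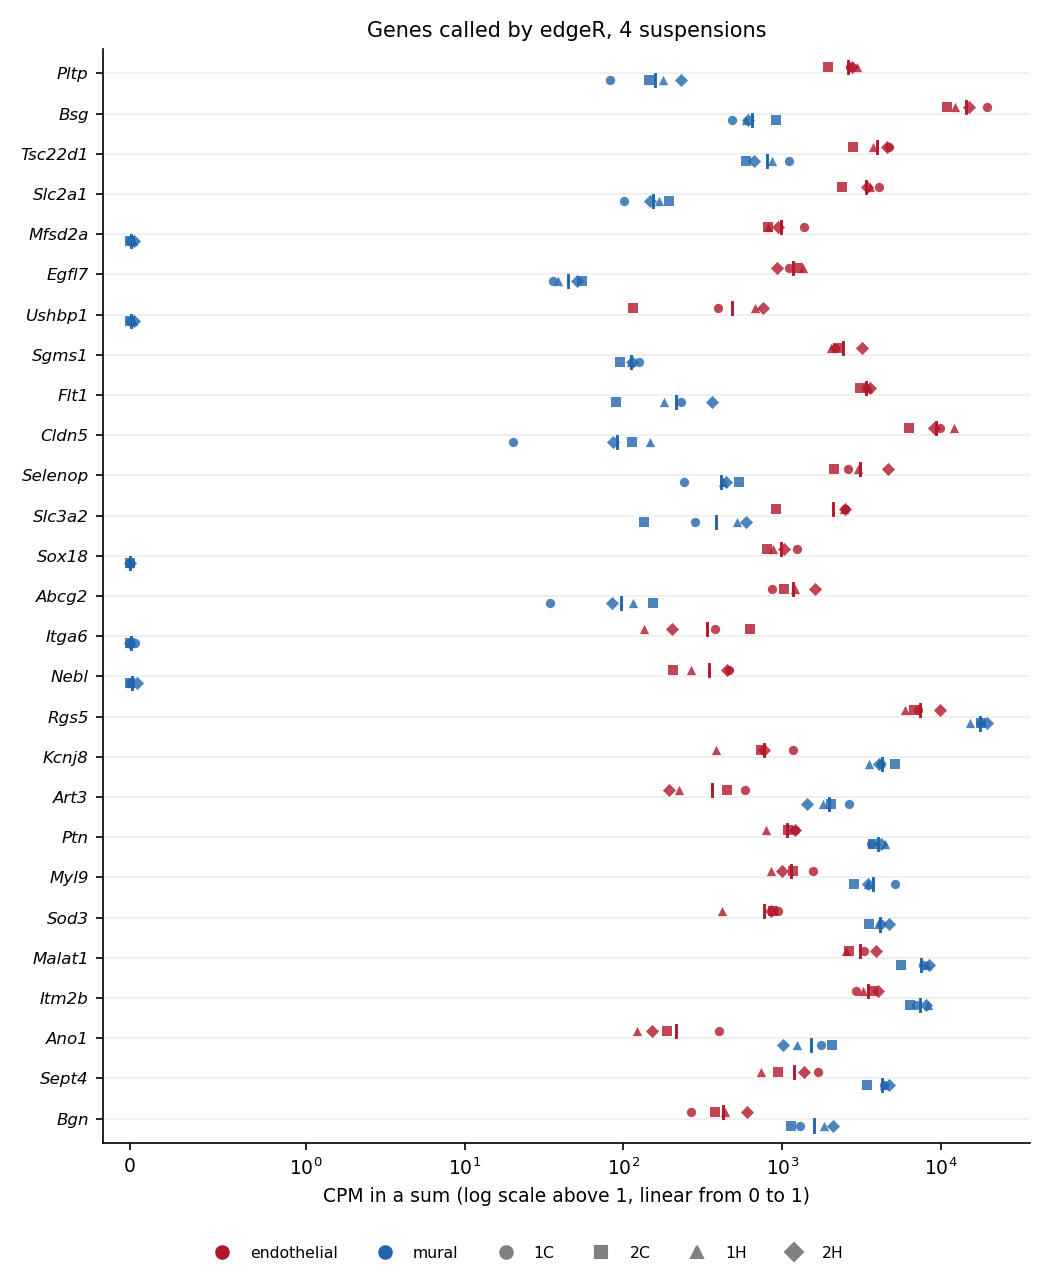
CPM of 27 of the 28 genes called by edgeR in the 4 endothelial (red) and 4 mural (blue) sums, 16 higher in endothelial cells above and 11 higher in mural cells below, with a vertical tick at each mean and a marker per suspension. The axis is logarithmic above 1 CPM and linear from 0 to 1. The groups are apart for all 27 genes shown, with the narrowest gaps for Malat1, Rgs5, Slc3a2 and Itm2b.

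The genes that define the endothelial surface were called by limma in the endothelial direction without exception. Of 25 endothelial identity genes 24 were tested, 4 were called by edgeR (Flt1, Cldn5, Egfl7 and Ushbp1) and 24 by limma, all higher in endothelial cells, beside 0.189% and 5.17% of all genes. Their median log2 fold change was 7.34 in edgeR, beside -1.18 over all genes, and the endothelial sums stood above the mural without overlap for 22 of 24, beside 4.14% of all genes. Vwf, the factor stored in endothelial granules of larger vessels, was not tested and had a count in 16.7% of the endothelial cells. The list was drawn up to describe this cell type, so its direction follows from the labels.

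Cldn5, the main claudin of brain endothelium, stood at 9877, 6340.5, 12042 and 9089.6 CPM in the endothelial sums and at 20.1, 112.8, 146.7 and 86.04 CPM in the mural sums (log2 fold change 6.90 ± 0.62 (SE), edgeR adjusted p = 0.021). It was counted in every endothelial cell and in 13 mural cells. Per kilobase of exon its endothelial level, 6594.1 CPM, stood beside 250.6 CPM for Flt1. Egfl7, a matrix protein that endothelial cells lay down along the vessel, was at 1107, 1250.5, 1358 and 931 against 35.7, 54.99, 38.5 and 50.8 CPM (log2 fold change 4.70 ± 0.37 (SE), edgeR adjusted p = 0.01). Ushbp1 had 393.5, 114.7, 676 and 752 CPM in the endothelial sums and 2 reads in all mural cells together (edgeR adjusted p = 0.01), and no fold change is given against so few reads.

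Of 24 junction genes 17 were tested and 10 were called by limma, all of them higher in endothelial cells, beside 5.17% of all genes. Ocln, the occludin gene, had 985, 188.995, 452.4 and 654 CPM in endothelial sums and 0 in 3 of 4 mural sums (limma adjusted p = 1.9e-05). Lsr, of the tricellular junction, had 379.2, 283.2, 310.8 and 335.04 against 0, 0, 13.6 and 2.37 CPM (limma adjusted p = 3.4e-06). Jam2 had 771, 200.7, 584 and 1057 against 20.9, 0, 10.6 and 31.05 CPM (limma adjusted p = 9.4e-06). The scaffold gene Tjp1 and the adhesion molecule Esam were read in both types. Tjp1 stood at 357.2, 959, 487.2 and 438.2 against 197.5, 303.03, 236.2 and 232.3 CPM (limma adjusted p = 0.0071) and Esam at 2896, 1448, 1827 and 2577 against 1338, 1788, 1456 and 1396 CPM (limma adjusted p = 0.014), and the sums of Esam overlapped although limma called it. Cdh2, the N-cadherin that can join endothelial and mural cells, did not pass either test, with 92.97, 152.96, 94.2 and 149.8 against 126.3, 105.1, 175.1 and 206.2 CPM (edgeR adjusted p = 0.99, limma adjusted p = 0.92). Its edgeR log2 fold change was -0.32 with all wells and -6.43 without the endothelial wells rich in mural transcripts. The medians over all tested genes in these fits were -1.18 and -4.82. Without cells rich in astrocyte genes the log2 fold change of Cdh2 was 0.56. Without the wells rich in mural transcripts edgeR did not call Cdh2 either (adjusted p = 0.46), so a dependence of its level on these wells is not shown. The endothelial cadherin Cdh5 had 53.7, 42.2, 38.6 and 48.2 CPM in the endothelial sums and was counted in 76.7% of endothelial and 1.49% of mural cells. The related genes Cldn12, Tjp3 and Marveld3 had no count in any endothelial cell.

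Most carriers and pumps of the barrier were called by limma in the endothelial direction. Of 30 carriers, pumps and receptors 28 were tested; edgeR called 4 (Slc2a1, Mfsd2a, Slc3a2 and Abcg2) and limma 21, all higher in endothelial cells, beside 5.17% of all genes in limma. For 19 of the 28 the endothelial sums stood above without overlap, and for 1 the mural sums did, beside 4.14% and 9.27% of all genes. Slc2a1, which encodes the glucose transporter GLUT1 of the barrier, stood at 4075, 2384, 3560.2 and 3406 CPM in the endothelial and 101.3, 194.5, 168.4 and 147.7 CPM in the mural sums (log2 fold change 4.47 ± 0.33 (SE), edgeR adjusted p = 0.01). Mfsd2a, the carrier of lysophospholipids with omega-3 fatty acids that also holds vesicle transport low, had 1379.7, 813, 816 and 947 CPM in the endothelial sums and 2 reads in all mural cells (edgeR adjusted p = 0.01). Slc3a2, the heavy chain of the large neutral amino acid exchanger, was at 2472, 917, 2441 and 2499 against 281.2, 134.9, 521.01 and 587 CPM (log2 fold change 2.55 ± 0.27 (SE), edgeR adjusted p = 0.027). Its light chain Slc7a5 was at 363.5, 257.03, 318.5 and 387.3 against 0, 61.1, 2.08 and 11.2 CPM, called by limma (limma adjusted p = 1.4e-06) and not by edgeR (edgeR adjusted p = 0.59). Abcg2, the breast cancer resistance protein, an efflux pump, was at 864, 1022, 1209 and 1617 against 34.6, 154.6, 114.2 and 84.8 CPM (log2 fold change 3.76 ± 0.46 (SE), edgeR adjusted p = 0.047). The other efflux pump, Abcb1a (P-glycoprotein), was at 616, 274.8, 861 and 462.9 against 0, 2.02, 7.42 and 2.07 CPM (limma adjusted p = 1.7e-07).

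Among carriers called by limma alone, the organic anion carrier Slco1a4 had 6511, 3748, 3647 and 5151 CPM in endothelial and 0, 0, 162.6 and 89.5 CPM in mural sums (limma adjusted p = 3.3e-15). The thyroid hormone carrier Slco1c1 was at 1691, 871, 2382 and 1764 against 0.0314, 71.9, 12.5 and 9.39 CPM (limma adjusted p = 8.9e-11), and the taurine carrier Slc6a6 at 2793, 1730.4, 2189 and 1653 against 0, 0, 95.4 and 134.7 CPM (limma adjusted p = 1.2e-11). The iron exporter ferroportin, Slc40a1, stood at 1504, 1404, 1537 and 1539.6 against 0, 0, 83.8 and 0 CPM (limma adjusted p = 1.4e-12). The transferrin receptor Tfrc stood at 1152, 393.8, 1503 and 1000.3 against 78.2, 0, 5.49 and 7.13 CPM (limma adjusted p = 7.1e-07). Of the 7 not called by limma, Slc22a8, an organic anion carrier often counted as a barrier gene, had overlapping sums (2155, 778, 1597 and 2684 against 2255, 2484, 1547 and 1829.9 CPM, edgeR adjusted p = 0.94, limma adjusted p = 0.25). Slc22a8 was counted in 81.3% of mural cells and in 0.898% of astrocytes.

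Several genes outside the lists passed the test in the endothelial direction. Bsg, the basigin that accompanies lactate carriers to the membrane, was at 19493, 10976, 12336 and 14973 CPM in endothelial sums against 482.2, 914, 587 and 606 CPM in mural sums (log2 fold change 4.49 ± 0.30 (SE), edgeR adjusted p = 0.01). Its partner Slc16a1, the lactate carrier MCT1, was at 1100.1, 338.8, 1158 and 1245 against 0, 0, 0.0179 and 24.6 CPM (limma adjusted p = 6e-06). Pltp, the phospholipid transfer protein, was at 2662, 1951, 2975 and 2757 against 82.8, 144.6, 176.2 and 229.7 CPM (log2 fold change 4.10 ± 0.32 (SE), edgeR adjusted p = 0.01). Sgms1, a sphingomyelin synthase, was at 2145, 2244, 2036 and 3187 against 124.5, 94.5, 112.3 and 113.5 CPM (log2 fold change 4.42 ± 0.25 (SE), edgeR adjusted p = 0.01). Pltp, Sgms1 and Mfsd2a act on phospholipids, a grouping made after the values were seen. Tsc22d1, a leucine zipper regulator, was at 4728, 2785, 3752 and 4602 against 1100.5, 593, 866 and 666 CPM (log2 fold change 2.31 ± 0.18 (SE), edgeR adjusted p = 0.01). Selenop, the selenium carrier of plasma, was at 2598, 2134, 3026 and 4616 against 241.7, 532.1, 425.9 and 444.6 CPM (log2 fold change 2.91 ± 0.30 (SE), edgeR adjusted p = 0.027). Nebl, an actin-binding nebulette, had 464.4, 206.2, 265.6 and 446.7 CPM in endothelial sums and 2 reads in all mural cells (edgeR adjusted p = 0.049).

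Of 10 genes of caveolae and vesicle transport 9 were tested and 5 were called by limma, all higher in endothelial cells, beside 5.17% of all genes. Cav1, the caveolin that shapes the pits, was at 789.9, 300.5, 569.7 and 264.3 against 37.3, 0, 58.9 and 33.7 CPM (limma adjusted p = 0.0003), while the sums of Cavin1, which coats the pits, overlapped at 927, 1445, 849 and 1389 against 1280.3, 569, 555 and 540.7 CPM although limma called it (limma adjusted p = 2e-05). Plvap, the diaphragm protein of leaky vessels, was counted in 3.33% of endothelial and in no mural cell.

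The promoter windows of these genes were searched for letters known from transcription factor sites, because ETS factors such as ERG and FLI1 are the best known regulators of endothelial genes. The windows run from 250 bases before to 50 bases after a gene's start and come from RefSeq (GRCm38.p6). Of the endothelial identity list 15 of 25 genes had a window, and of the mural identity list 20 of 25. An ETS form, CAGGAAG or AGGAAGT on either strand, stood in 10 of 15 endothelial and 1 of 20 mural genes, Tbx18, beside 20.5% of all 27025 genes with a window. The 2 forms overlap where a site reads through both. Among the other letter strings searched, chosen with the lists known, TGGGAA stood in 6 of 15 and 7 of 20 genes (28.3% of all genes), TATAAA in 2 and 6 (15.7%), ATTGTT in 3 and 5 (12.2%) and GATAAG in 2 and 4 (8.58%). ACAAAG stood in 5 and 2 (21.02%), CTTTGTT in 1 and 1 (6.68%), CACCC in 12 and 14 (59.8%) and GCGTG in 5 and 8 (35.2%). GGAAG, which both ETS forms contain, stood in 13 and 13 (73.9%). A single one of the many letter strings that the CArG box of SRF allows was searched, and it stood in none of them (0.0777% of all genes). A match of letters is a description and shows neither binding nor a cause. The windows below are those of Flt1, chr5:147725962-147726261 (minus strand), and Cd34, chr1:194938571-194938870 (plus strand), as endothelial genes with a match, and of Vtn, chr11:78498870-78499169 (plus strand), and Kcnj8, chr6:142571565-142571864 (minus strand), as mural genes without, each written 5' to 3' on the strand of its gene with the ETS letters in capitals.
Flt1: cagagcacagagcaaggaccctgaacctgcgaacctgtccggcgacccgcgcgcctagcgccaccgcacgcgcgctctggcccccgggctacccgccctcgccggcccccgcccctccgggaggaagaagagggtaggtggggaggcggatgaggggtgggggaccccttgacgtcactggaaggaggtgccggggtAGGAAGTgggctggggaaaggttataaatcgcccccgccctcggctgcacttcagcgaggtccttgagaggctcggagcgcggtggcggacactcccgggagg
Cd34: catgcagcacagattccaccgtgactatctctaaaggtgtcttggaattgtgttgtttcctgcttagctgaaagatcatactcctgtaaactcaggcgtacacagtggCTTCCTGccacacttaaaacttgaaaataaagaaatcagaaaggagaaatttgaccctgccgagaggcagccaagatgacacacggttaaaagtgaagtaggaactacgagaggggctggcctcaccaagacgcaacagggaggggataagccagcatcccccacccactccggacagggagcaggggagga
Vtn: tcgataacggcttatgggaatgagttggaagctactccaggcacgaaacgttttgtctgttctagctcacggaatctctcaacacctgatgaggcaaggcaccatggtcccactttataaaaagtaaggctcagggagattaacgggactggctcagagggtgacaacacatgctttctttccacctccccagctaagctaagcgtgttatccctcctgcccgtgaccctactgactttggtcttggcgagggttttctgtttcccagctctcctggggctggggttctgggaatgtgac
Kcnj8: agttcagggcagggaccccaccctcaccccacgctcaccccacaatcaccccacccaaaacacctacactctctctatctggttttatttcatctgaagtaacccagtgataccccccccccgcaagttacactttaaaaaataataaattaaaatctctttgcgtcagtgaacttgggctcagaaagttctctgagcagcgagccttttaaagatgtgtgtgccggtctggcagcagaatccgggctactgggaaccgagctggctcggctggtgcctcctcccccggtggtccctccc

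Transcription factors of the endothelium were mostly higher in endothelial cells or not called. Of 25 such genes 20 were tested; edgeR called Sox18, and limma called 12 higher in endothelial cells and 1, Nr2f2, higher in mural cells, beside 5.17% and 1.25% of all genes. Sox18, a SOX factor of endothelial differentiation, had 1239, 805, 874 and 1031 CPM in the endothelial sums and no read in any mural cell (edgeR adjusted p = 0.035), at least 50565-fold higher when 3 reads over the mural group are taken as the floor. Such floors cover counting error only, because reads amplified by PCR are not independent molecules. Sox17 had 543, 485.3, 370.3 and 239.6 against 0, 0, 102.9 and 0 CPM (limma adjusted p = 1.4e-06). Mecom had 437.04, 238.9, 591 and 84.3 CPM and no mural read (limma adjusted p = 0.0002). Of the ETS family, Fli1 was at 311.2, 299.3, 185.3 and 162.1 against 11.5, 0, 17.8 and 62.7 CPM (limma adjusted p = 7.8e-05), Erg had 67.1, 47.996, 83.4 and 23.2 CPM and no mural read (limma adjusted p = 0.068), and Ets1, called by limma (limma adjusted p = 0.021), had overlapping sums at 554, 797, 1242 and 1193 against 755, 685, 784 and 1246 CPM. Nr2f2, known as a regulator of venous identity, was at 42.7, 19.6, 48.9 and 128.997 CPM in endothelial and 384.3, 487.2, 484.5 and 480.7 CPM in mural sums (limma adjusted p = 0.0048). Epas1, the hypoxia-inducible factor HIF-2 alpha, was read in both and did not pass either test, at 1675, 2078, 1909 and 2751 against 1295, 2022, 1641 and 1853 CPM (edgeR adjusted p = 0.71, limma adjusted p = 0.57).

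**Figure D3:**
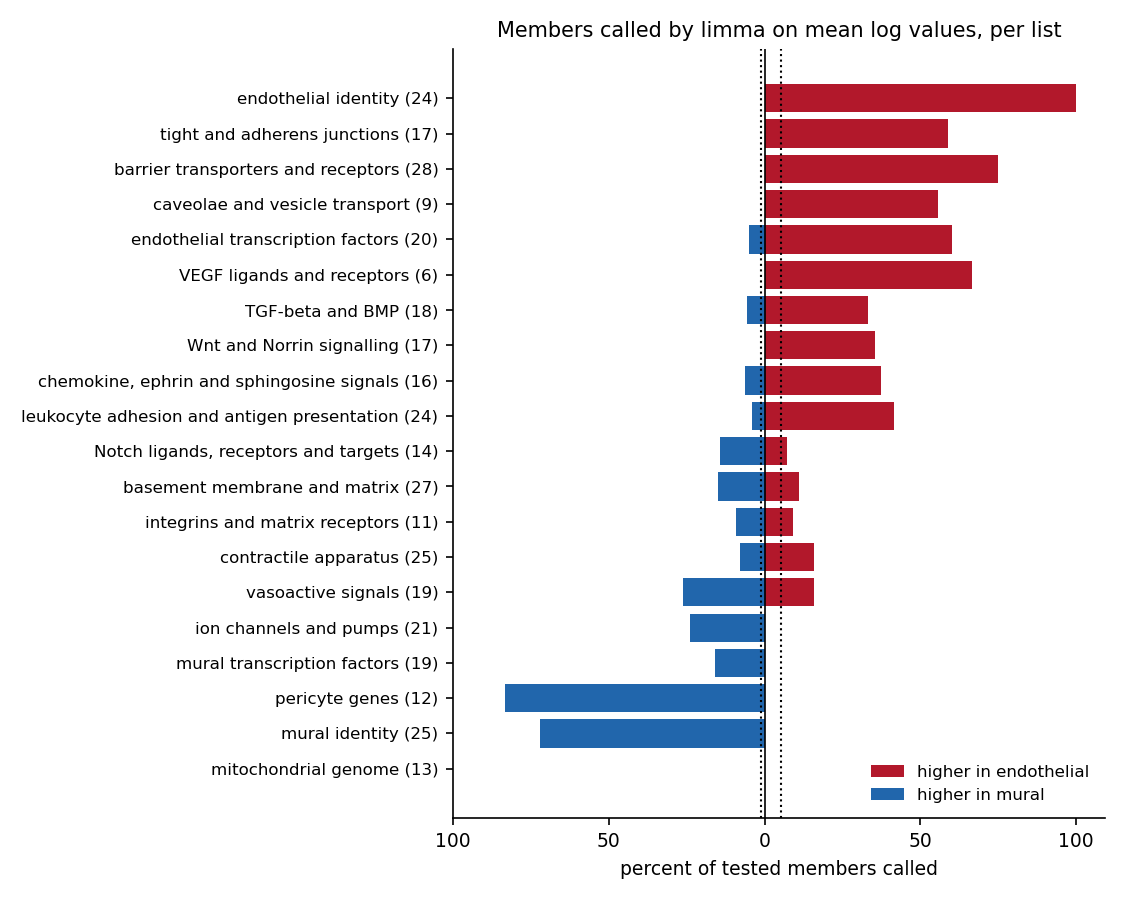
Percentage of the tested members of 20 gene lists called by limma on mean log values, endothelial calls to the right in red and mural calls to the left in blue, with the number tested in brackets. Dotted lines mark the share over all 8478 genes (5.17% and 1.25%). All 24 tested endothelial identity genes and 18 of 25 mural identity genes were called, each in the direction of its name, and 0 of 13 genes of the mitochondrial genome were.

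Genes of the signals between the layers were called in both directions. Pdgfb, the ligand that recruits pericytes, had 144.5, 514.95, 151.9 and 66.5 CPM in the endothelial sums and 34.8, 0, 0 and 0 CPM in the mural sums, and was called by limma (limma adjusted p = 0.0089). It was counted in 33.3% of endothelial cells and in 1 mural cell. Its receptor Pdgfrb was counted in 98.5% of mural cells and in 14 endothelial cells, 11 of which were among the 13 wells rich in mural transcripts, and its endothelial level was 25.5% of the mural level with those wells and 3.49% without them (CPM without TMM scaling).

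Of 6 VEGF ligands and receptors tested limma called 4, and of 4 genes of the angiopoietin system 3, all in endothelial cells, beside 5.17% of all genes. Flt1 and Kdr of the former and the 3 called of the latter, Tek, Tie1 and Ptprb, are also in the endothelial identity list. Their direction follows from the labels, and these counts in part repeat those of that list. The endothelial sums stood above without overlap for 3 of the 6 and 3 of the 4, and the mural sums for 2 and 1, beside 4.14% and 9.27% of all genes. Kdr, VEGF receptor 2, was at 781, 259.3, 1152 and 1022 against 0, 89.1, 0 and 72.1 CPM (limma adjusted p = 2.4e-08). The co-receptor Nrp1 stood at 544, 332.8, 351.2 and 434.5 against 209.5, 280.2, 180.8 and 25.9 CPM (limma adjusted p = 0.00064). Vegfa had no count in an endothelial cell and a count in 1.49% of mural cells and 36.2% of astrocytes. The placental growth factor Pgf had 73.8, 66.8, 111.3 and 64.4 CPM in mural sums and no endothelial read, without passing a test (edgeR adjusted p = 0.57, limma adjusted p = 0.14). Tek, the angiopoietin receptor TIE2, was at 1206, 235.05, 649 and 725 against 49.5, 84.3, 34.7 and 51.1 CPM (limma adjusted p = 2.7e-07). Its relative Tie1 had 549, 449.9, 134.7 and 426.2 against 64.1, 0, 20.7 and 0 CPM (limma adjusted p = 1.6e-05). Ptprb, the phosphatase that restrains TIE2, stood at 1469.8, 1047, 1534 and 1449.9 against 2.86, 0, 20.6 and 101.5 CPM (limma adjusted p = 3.2e-11). The ligand Angpt1 was nearly unread, with counts in 2.24% of mural cells and 7.86% of astrocytes. Angpt2 had 74.5, 99.997, 49.3 and 30.4 CPM in mural sums and no endothelial read, and passed neither test (edgeR adjusted p = 0.57, limma adjusted p = 0.16).

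Of 14 Notch genes tested limma called 1 in endothelial and 2 in mural cells, beside 5.17% and 1.25% of all genes. In 4 of 4 suspensions 1 was higher in the endothelial sum and 7 in the mural sum, beside 6.42% and 17.2% of all genes. Notch3, the receptor of mural cells that is mutated in CADASIL, was at 8.23, 196.3, 19.2 and 78.4 against 484.003, 343.3, 419.6 and 359.8 CPM (limma adjusted p = 0.037). Its target Heyl was at 378.5, 927, 67.3 and 375.7 against 1442, 1003, 1314 and 2084 CPM (limma adjusted p = 0.0011), and had no endothelial count without the 13 wells. The endothelial level of Notch3 was 24.3% of the mural level with all wells and 1.60% without the 13. Mfng, a fringe enzyme that tunes Notch ligands, had 82.2, 93.8, 351.2 and 246.1 CPM in endothelial sums and 1 read in all mural cells (limma adjusted p = 0.0022). The ligand Dll4 had 210.2, 0, 0 and 356.5 against 30.5, 0, 30.1 and 17.1 CPM, with overlapping sums, and Jag1 had 66.9, 0, 102.7 and 50.3 against 217.7, 11.3, 192.8 and 107.01 CPM. Hes1, a target of Notch, had overlapping sums, at 466.3, 278.7, 1004 and 555 against 326.2, 195.6, 763 and 590.5 CPM (limma adjusted p = 0.57).

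Of 31 genes of the TGF-beta and BMP pathways 18 were tested, and limma called 6 higher in endothelial and 1 higher in mural cells, beside 5.17% and 1.25% of all genes. The endothelial calls included the receptor Acvrl1 (ALK1), with 872, 672, 769 and 663 CPM and mural reads in 2H alone, at 65.7 CPM (limma adjusted p = 1.4e-08). The co-receptor Eng was at 2680.3, 2503, 3265 and 2889.6 against 980.0, 701, 1045 and 1489 CPM (limma adjusted p = 1.6e-07). The target gene Id1 stood at 1036, 1075, 974 and 1072 against 240.6, 106.9, 403.2 and 267.4 CPM (limma adjusted p = 1.8e-07). The target gene Id3 stood at 1693, 1516, 1525 and 2139.7 against 229.7, 287.7, 817 and 519.2 CPM (limma adjusted p = 8.9e-08). The mural call was a ligand, Bmp4, with 153.6, 73.6, 143.9 and 254.9 CPM in mural sums and no endothelial read (limma adjusted p = 0.047). In edgeR none of the 18 was called, with Eng nearest (edgeR adjusted p = 0.063). Of the Wnt and Norrin genes 17 of 24 were tested and 6 called by limma in endothelial cells, beside 5.17% of all genes. These included Lef1, at 173.4, 136.5, 370.95 and 158.4 against 1.95, 185.2, 38.9 and 26.8 CPM, with overlapping sums (limma adjusted p = 0.0048). The feedback inhibitor Nkd1 was at 605, 115.6, 177.3 and 347.1 against 22.95, 0, 57.3 and 13.8 CPM (limma adjusted p = 0.00038). The forkhead gene Foxq1 stood at 48.1, 310.4, 419.6 and 254.4 against 0, 26.9, 13.8 and 5.68 CPM (limma adjusted p = 5.8e-05). The Norrin receptor Fzd4 did not pass a test, at 315.03, 221.9, 23.7 and 89.1 against 52.03, 144.4, 0 and 0 CPM (limma adjusted p = 0.29).

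Pathways of vessel tone had members called in both directions. Nos3, the endothelial nitric oxide synthase, was at 142.2, 233.3, 211.96 and 247.4 against 0, 0, 10.004 and 14.4 CPM (limma adjusted p = 8.6e-05). The subunits of its target, soluble guanylate cyclase, had the opposite order: Gucy1a1 was at 161.7, 284.8, 343.8 and 99.5 against 1118, 1032, 1150.2 and 1109.7 CPM (limma adjusted p = 0.0045). Gucy1b1 stood at 404.1, 135.8, 169.6 and 104.2 against 1019.6, 989, 1309.9 and 1199.8 CPM (limma adjusted p = 0.00043). Without the 13 wells the endothelial level of Gucy1b1 went from 20.8% to 8.64% of the mural level and Gucy1a1 had no endothelial count. Edn1, the endothelin gene, had 132.8, 315.5, 237.9 and 122.5 CPM and no mural read (limma adjusted p = 0.0087), while its receptor Ednra was at 166.6, 0, 347.6 and 285.7 against 841, 478.9, 619 and 748 CPM (limma adjusted p = 0.0026). Ece1, which matures endothelin, was read in 93.3% and 92.5% of the cells and did not pass a test (edgeR adjusted p = 0.072, limma adjusted p = 0.14). Of the 41 vasoactive genes 19 were tested, and limma called 3 in endothelial and 5 in mural cells, beside 5.17% and 1.25% of all genes, and edgeR 1 (Rgs5). The sphingosine phosphate receptors were also called in both directions, with S1pr1 at 522.8, 1105, 721 and 1038 against 4.53, 0.405, 26.1 and 0.151 CPM (limma adjusted p = 1.7e-09) and S1pr3 at 946, 188.4, 141.9 and 506.5 against 2506, 3150.2, 2539 and 3857 CPM (limma adjusted p = 8e-08), an endothelial level of 16.3% of the mural level with all wells and 4.49% without the 13. Cxcl12, a chemokine of the vessel wall, was at 3271, 1906, 2346 and 2395 against 669, 593, 1130.3 and 759 CPM (limma adjusted p = 0.001). Its scavenging receptor Ackr3 stood at 161.9, 209.3, 639 and 74.1 against 1801, 692, 849.7 and 1328 CPM without passing a test (limma adjusted p = 0.15).

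**Figure D4:**
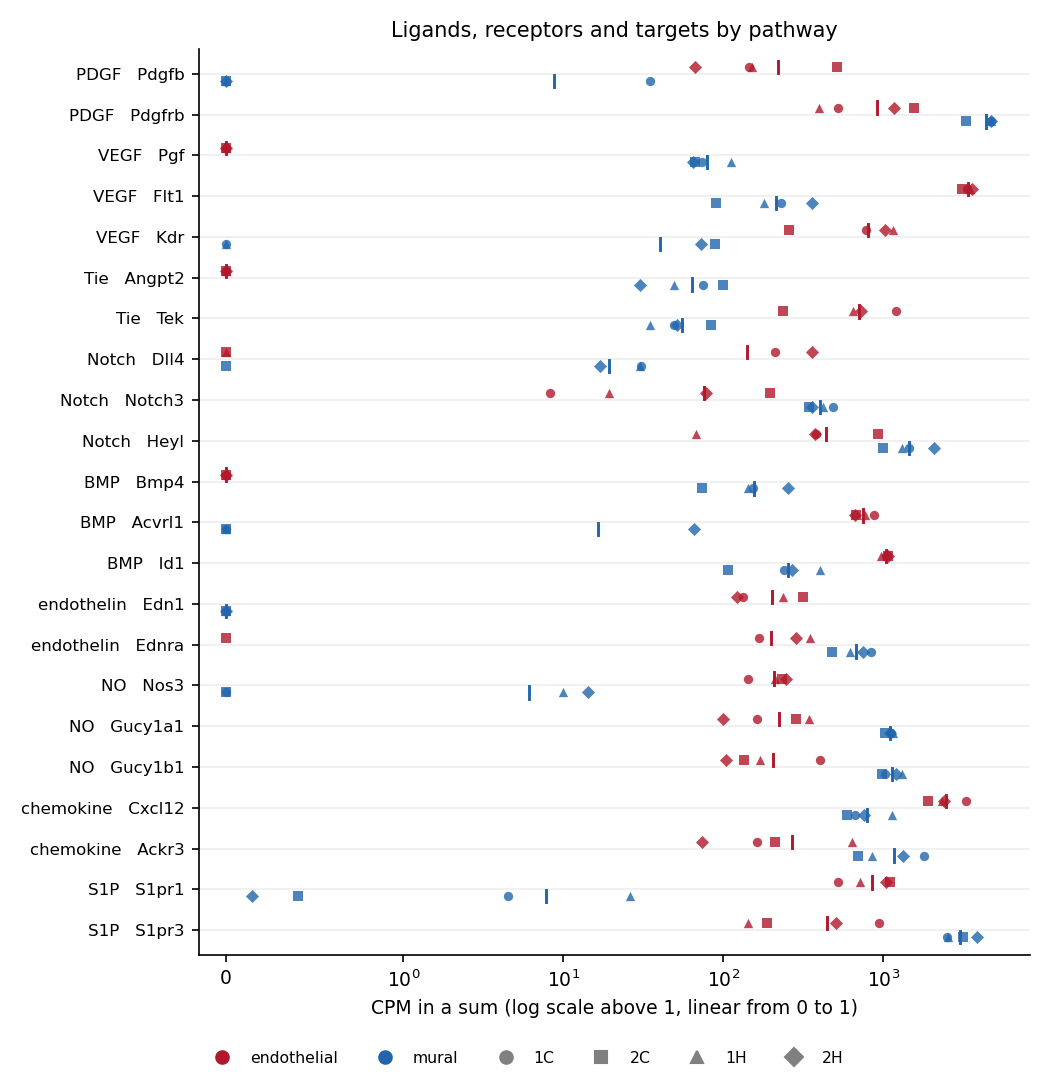
CPM of 22 ligands, receptors, enzymes and targets, named with their pathway, in the 4 endothelial (red) and 4 mural (blue) sums, with a tick at each mean and a marker per suspension; the axis is logarithmic above 1 CPM and linear from 0 to 1. Pdgfb, Edn1 and Nos3 lie to the right in the endothelial sums and Pdgfrb, Ednra, Gucy1a1 and Gucy1b1 in the mural sums, with no overlap except for Dll4.

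The mural genes called by edgeR included those of pericytes. Of 12 pericyte genes all were tested; edgeR called 3 (Rgs5, Kcnj8 and Art3) and limma 10, all higher in mural cells, beside 0.142% and 1.25% of all genes, and the mural sums stood above without overlap for 11 of 12, beside 9.27% of all genes. Their median log2 fold change was -2.48, beside -1.18 over all genes tested. Kcnj8, the pore subunit of the ATP-sensitive potassium channel, stood at 1164, 734, 383.1 and 773 CPM in endothelial and 4168, 5146, 3521 and 4097 CPM in mural sums (log2 fold change -2.57 ± 0.25 (SE), edgeR adjusted p = 0.027). Its partner Abcc9, the sulfonylurea receptor, was at 779.8, 779, 7.36 and 152.6 against 1580.0, 1904, 1379 and 1642 CPM (limma adjusted p = 0.0013). Art3, an ADP-ribosyltransferase-like surface protein, was at 580.2, 446.3, 223.4 and 192.97 against 2643, 2019, 1811 and 1435 CPM (log2 fold change -2.57 ± 0.26 (SE), edgeR adjusted p = 0.027). Vtn, the adhesive protein vitronectin, had 6544, 10536, 2699 and 6946 CPM in endothelial and 27333, 30606, 32253 and 29233 CPM in mural sums (edgeR adjusted p = 0.077, limma adjusted p = 4.4e-09). Atp13a5, a transport ATPase, was at 1799, 2369, 512.2 and 1351 against 6443, 7274, 7519 and 7935 CPM (limma adjusted p = 1.3e-09).

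Rgs5, a regulator of G protein signalling and the textbook pericyte gene, was read in both types. It stood at 7131, 6802, 5943 and 9844 CPM in endothelial and 17656, 17819, 15336 and 19399 CPM in mural sums (log2 fold change -1.26 ± 0.09 (SE), edgeR adjusted p = 0.01), and it was counted in 30 of 30 endothelial cells and 97.8% of mural cells. All 17 endothelial cells with little of the mural list held it, and without the 13 wells its level was still 34.6% of the mural level. The limma test on cells counted equally did not call it (limma adjusted p = 0.32). Its edgeR log2 fold change lay near the median over all genes tested, -1.18. Its endothelial level with all wells was 48.9% of the mural level, beside a median of 93.8% over all genes tested. For the other genes of the mural identity list, except Mcam, the level without those wells was a smaller share of the mural level. Rgs4, of the same gene family, was at 16.7% of the mural level with all wells and 0.355% without the 13, Atp13a5 at 24.9% and 0.487%, Vtn at 26.9% and 3.51%, Kcnj8 at 20.7% and 6.73%, Art3 at 21.6% and 2.90%, and Abcc9 at 32.1% and 13.9%. Over the 25 mural identity genes the endothelial level had a median of 24.3% of the mural level with all wells, 20 of the 25 lying between 10 and 30%, and a median of 2.25% without the 13 wells, with 8 genes under 1%. Over all 8478 genes tested the median of this share was 93.8% with all wells and 72.5% without the 13. The exceptions at the upper end without those wells were Mcam, at 45.8%, Rgs5, and Ndufa4l2, a relative of the respiratory chain gene Ndufa4, at 19.7%. These shares describe the same cells that set the limit, so the change carries no test.

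**Figure D5:**
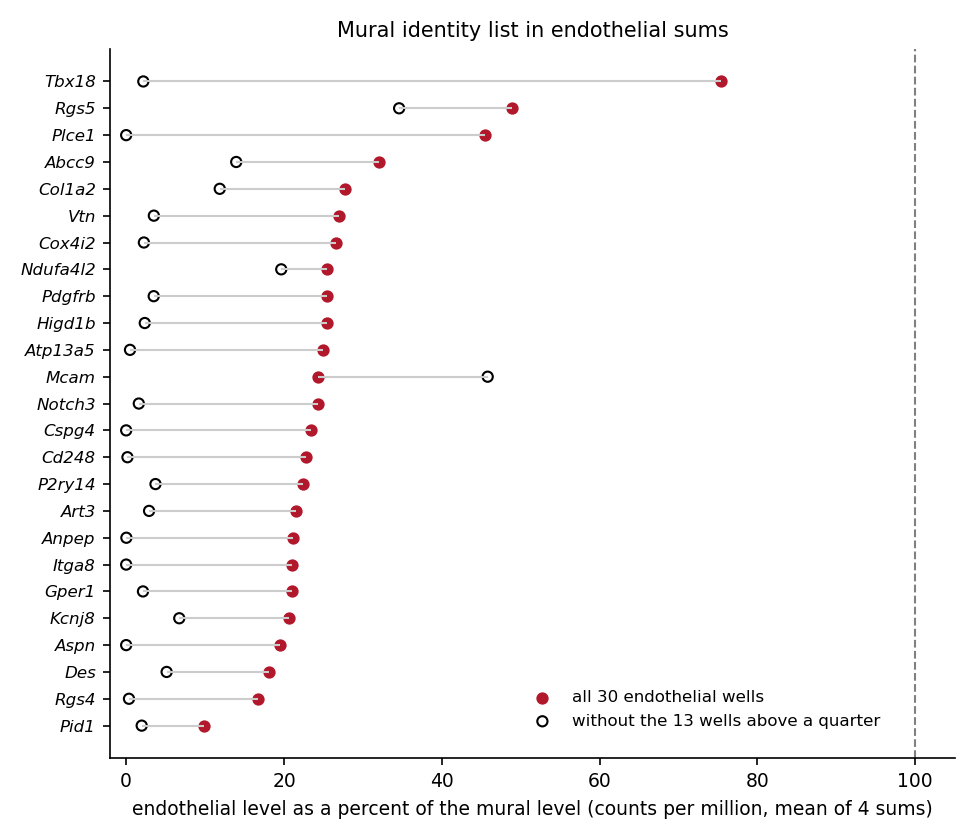
Endothelial level as a percentage of the mural level for the 25 mural identity genes, in CPM without TMM scaling averaged over the 4 suspensions, with all 30 endothelial wells (red) and without the 13 wells above 25% of the mural median (open circles); the dashed line is equality. With all wells 20 of 25 genes lie between 10 and 30%, and without the 13 wells 20 of 25 lie under 10%, Mcam (45.8%) and Rgs5 (34.6%) being the highest.

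Ion transport gave calls in the mural direction alone. Of 38 channel and pump genes 21 were tested; edgeR called 3, Kcnj8 and Ano1 among them, and limma 5, all higher in mural cells, beside 1.25% of all genes in limma. Ano1, a calcium-activated chloride channel, was at 402.1, 187.4, 122.4 and 150.5 against 1766, 2054, 1237 and 1008 CPM (log2 fold change -2.92 ± 0.33 (SE), edgeR adjusted p = 0.04). Its endothelial level was 16.1% of the mural level with all wells and 0.945% without the 13 wells rich in mural transcripts (edgeR adjusted p = 0.038 without them). Atp1b2 encodes the antigen of the sort itself. It stood at 872, 547, 236.9 and 762 CPM in endothelial and 3304, 3477, 3126 and 3551 CPM in mural sums (log2 fold change -2.62 ± 0.33 (SE), edgeR adjusted p = 0.052; limma adjusted p = 1.4e-08), and it was counted in 99.3% of mural cells and 18 of 30 endothelial cells. All 13 wells rich in mural transcripts held it, and 5 of the other 17 did. Cells were sorted on its product, so the part of the gate in these levels cannot be told apart from that of the type.

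Of the smooth muscle list Myl9 was counted in 98.5% of mural cells and in 22 of 30 endothelial cells, and Acta2 and Myh11 in few cells. Acta2, the smooth muscle actin, was counted in 4 mural cells and in no endothelial cell, and Myh11, the smooth muscle myosin, in 16 mural and 2 endothelial cells. Of 13 smooth muscle genes 4 were tested, and Myl9, a regulatory myosin light chain, was called by edgeR, at 1556, 1165, 852 and 996 against 5127, 2816, 3468 and 3469 CPM (log2 fold change -1.71 ± 0.17 (SE), edgeR adjusted p = 0.027). Among 25 tested contractile genes limma called 4 in endothelial cells, Vim, Synm, Tpm1 and Tpm4, the last 2 with overlapping sums, and 2 in mural cells, Myl9 and Cald1, beside 5.17% and 1.25% of all genes. The edgeR log2 fold change of Tpm1 turned to the mural direction without the 13 wells and took both signs with 1 suspension left out. Vim, the vimentin gene, was at 599, 477.4, 842 and 426.3 against 278.2, 45.3, 54.1 and 146.01 CPM (limma adjusted p = 9.8e-06). Cald1, the caldesmon gene, stood at 895, 1382, 441.8 and 1341 against 2897, 3302, 2989 and 3373 CPM (limma adjusted p = 0.00074). With all wells and without the 13, the endothelial level of Myl9 was 36.1% and 19.3% of the mural level and that of Cald1 38.2% and 20.9%, and Myl9 was no longer called by edgeR without them (adjusted p = 0.07).

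Genes of basement membrane and matrix had a summed level of 12659 to 19490 CPM in the endothelial and 44888 to 50831 CPM in the mural sums. This list includes Vtn, which also stands in the mural identity and pericyte lists. Vtn alone, at the levels given above, made up most of the summed level in every mural sum. Of 39 matrix genes 27 were tested; edgeR called Bgn and limma 4 in mural and 3 in endothelial cells, beside 1.25% and 5.17% of all genes. The mural sums stood above without overlap for 12 of the 27 and the endothelial sums for 2, beside 9.27% and 4.14% of all genes. Bgn, the small proteoglycan biglycan, was at 267.1, 377.8, 439.2 and 603 against 1296, 1129.7, 1824 and 2089.8 CPM (log2 fold change -1.93 ± 0.24 (SE), edgeR adjusted p = 0.047). Its endothelial level was 31.3% of the mural level with all wells and 12.3% without the 13, where edgeR no longer called it (adjusted p = 0.23). Lamc3, a laminin chain, was at 0.740, 185.4, 0 and 0 against 521.6, 322.1, 444.6 and 414.04 CPM (limma adjusted p = 0.0035). Nid1, the nidogen that ties laminin to collagen IV, stood at 271.01, 218.5, 221.6 and 372.5 against 738, 1128, 839 and 1206 CPM (limma adjusted p = 0.049). Without the 13 wells the endothelial level of Nid1 went from 31.6% to 14.2% of the mural level, and Lamc3 had no endothelial count. On the endothelial side Fn1, the fibronectin gene, was at 904, 334.2, 1348 and 829 against 22.4, 122.5, 14.9 and 41.2 CPM (limma adjusted p = 1.6e-07). Lama5 stood at 48.05, 132.8, 377.1 and 149.3 against 3.99, 0, 0 and 35.9 CPM (limma adjusted p = 0.025). Collagen IV was read in both types, with Col4a1 at 210.3, 325.5, 454.7 and 345.7 against 740.1, 413.3, 543 and 752 CPM (limma adjusted p = 0.93), and so was Sparc at 2587, 2157, 2097 and 2916 against 1785, 1971, 2291 and 2010.0 CPM (limma adjusted p = 0.48). Of the integrins, which bind this matrix, edgeR called Itga6, a laminin receptor, with 378.9, 628, 134.2 and 203.2 CPM in endothelial sums and 1 mural read (edgeR adjusted p = 0.047). Itga4 had the opposite order, 5.84, 152.5, 0 and 0 against 228.9, 313.5, 411.9 and 267.7 CPM (limma adjusted p = 0.044).

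Genes outside the lists made up the rest of the mural calls. Ptn, the growth factor pleiotrophin, was at 1199, 1085, 795 and 1197 against 3646, 3716, 4432 and 4217 CPM (log2 fold change -1.92 ± 0.19 (SE), edgeR adjusted p = 0.027). Sod3, the extracellular superoxide dismutase, stood at 945, 874, 416.04 and 851 against 4213, 3499, 4043 and 4739 CPM (log2 fold change -2.48 ± 0.25 (SE), edgeR adjusted p = 0.027). Sept4, a septin, was at 1689, 948, 736 and 1367 against 4410.4, 3417, 4404 and 4699.6 CPM (log2 fold change -1.90 ± 0.22 (SE), edgeR adjusted p = 0.04). With all wells and without the 13, the endothelial level was 22.02% and 1.35% of the mural level for Sod3, 31.2% and 15.01% for Ptn and 32.3% and 10.8% for Sept4. Without those wells edgeR called Sod3 (adjusted p = 0.0022) but not Ptn or Sept4 (adjusted p = 0.07 each). Itm2b, the membrane protein whose mutants cause familial dementias, was at 2919, 3745, 3230.1 and 4007 against 6947, 6417, 8247 and 8028 CPM (log2 fold change -1.10 ± 0.12 (SE), edgeR adjusted p = 0.039), but was not called by limma (limma adjusted p = 0.31). The nuclear RNA Malat1, at 3258, 2649, 2509 and 3905 against 7684, 5591, 8200.0 and 8441 CPM, was likewise called by edgeR (edgeR adjusted p = 0.027) and not by limma (adjusted p = 0.21). Itm2b, Malat1 and Rgs5 were counted in every endothelial cell, and they are the 3 edgeR calls that limma did not share. Their edgeR log2 fold changes, -1.10, -1.28 and -1.26, lay near the median over all genes tested, -1.18. With all wells their endothelial levels were 55.5%, 48.0% and 48.9% of the mural level, beside a median of 93.8% over all genes tested. Without the 13 wells Itm2b and Malat1 had an adjusted p of 0.07 each, at 44.02% and 38.4% of the mural level.

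Of 28 factors of mural transcription 19 were tested; edgeR called none and limma 3, all in mural cells, beside 1.25% of all genes. The mural sums stood above without overlap for 9 of the 19, beside 9.27% of all genes, and the endothelial sums for none. Foxs1 was at 66.8, 179.1, 120.04 and 87.5 against 444.3, 445.4, 581 and 849 CPM (limma adjusted p = 0.0035). Tbx18, used as a mural driver in mice, was counted in 10.4% of mural and 10% of endothelial cells and did not pass a test (limma adjusted p = 0.97). With all wells its endothelial level was 75.4% of the mural level, the highest share of the 25 mural identity genes. Without the 13 wells rich in mural transcripts its share was below that of Rgs5, 34.6%. Foxf2 and Foxc1, which are needed in brain pericytes, were read in both types; Foxf2 was at 63.4, 81.04, 500.5 and 36.8 against 78.3, 67.7, 211.5 and 70.4 CPM (limma adjusted p = 0.61).

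Immune genes of the vessel wall were called mostly in the endothelial direction. Of 32 genes of leukocyte adhesion and antigen presentation 24 were tested, and limma called 10 in endothelial and 1 in mural cells, beside 5.17% and 1.25% of all genes, and edgeR none. Ly6e was at 1829, 1772, 2515 and 1963 against 0, 140.3, 12.8 and 7.54 CPM (limma adjusted p = 4.8e-13) and B2m, the light chain of MHC class I, at 801, 645, 798 and 947 against 393.2, 149.1, 430.6 and 560.2 CPM (limma adjusted p = 0.0016). The mural call was Ifitm1, an interferon-induced membrane protein, at 178.9, 112.4, 144.5 and 177.2 against 823, 535.9, 582 and 471.6 CPM (limma adjusted p = 0.00072).

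Of 9 respiratory chain genes with tissue isoforms limma called 1 in endothelial and 3 in mural cells, beside 5.17% and 1.25% of all genes. None of 13 genes of the mitochondrial genome passed a test, and their summed level was 12950.2 to 20140.3 CPM in the endothelial sums and 12257 to 17358 CPM in the mural sums. Among nuclear genes, Ndufa4 was at 217.5, 94.05, 190.7 and 72.99 against 4.53, 0, 4.73 and 2.89 CPM (limma adjusted p = 7e-05), while its relative Ndufa4l2 was at 105.1, 185.9, 64.6 and 93.9 against 628, 549, 523.4 and 440.5 CPM (limma adjusted p = 0.004). Cox4i2, the hypoxic form of a cytochrome oxidase subunit, was at 182.6, 162.2, 34.6 and 142.9 against 512.7, 686, 614 and 473.4 CPM (limma adjusted p = 0.013). Of 17 tested glycolysis genes limma called 4 in endothelial and 1 in mural cells, beside 5.17% and 1.25% of all genes. The endothelial calls were the carriers Slc2a1 and Slc16a1, which are also in the barrier list, and Eno1 and Ldha, both with overlapping sums. The mural call was Aldoa, at 866, 558, 671 and 1014 against 1983, 2539.7, 1949 and 1969.6 CPM (limma adjusted p = 0.02). The endothelial sums stood above without overlap for 2 of the 17 and the mural sums for 3, beside 4.14% and 9.27% of all genes. Of the insulin-like growth factor system 8 genes were tested and 2 were called by limma (beside 5.17% of all genes), Igf1r at 34.5, 62.2, 475.2 and 411.8 against 70.6, 52.4, 13.6 and 40.9 CPM (limma adjusted p = 0.0015) and Htra3, both in the endothelial direction and both with overlapping sums. The mural sums stood above without overlap for 3 of the 8 and the endothelial sums for none, beside 9.27% and 4.14% of all genes.

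Genes of inherited diseases, listed for their part in vessels or in the barrier, fell on both sides. Of 25 such genes 23 were tested; limma called 7 in endothelial cells (Pdgfb, Jam2, Eng, Acvrl1, Slc2a1, Mfsd2a and Ocln) and 2 in mural cells (Pdgfrb and Notch3), beside 5.17% and 1.25% of all genes. Primary familial brain calcification, for instance, is caused by variants in Pdgfb and Jam2, which limma called higher in endothelial cells, and in Pdgfrb, called higher in mural cells. Slc20a2, Xpr1 and Myorg, listed for the same disease, were not among the calls. Immediate early and stress genes had a summed level of 18035 to 25562 CPM in endothelial and 9510 to 37203 CPM in mural sums. Limma called 7 of 30 of them in endothelial and 0 in mural cells, beside 5.17% and 1.25% of all genes, and edgeR called none. The endothelial sums stood above without overlap for 3 of the 30 and the mural sums for 0, beside 4.14% and 9.27% of all genes. In 4 of 4 suspensions 5 were higher in the endothelial and 4 in the mural sum, beside 6.42% and 17.2% of all genes. Among the limma calls, Dusp1 was at 2749, 2962, 6161 and 4799 against 2667, 1294, 3260.3 and 3631 CPM, with overlapping sums (limma adjusted p = 6.8e-05, edgeR adjusted p = 0.57). Its edgeR log2 fold change turned from 0.64 to -0.18 without the 13 wells. Klf2, a factor that responds to blood flow, stood at 359.5, 616, 416.9 and 655 against 40.6, 0, 95.6 and 108.8 CPM (limma adjusted p = 7.3e-08).

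Genes known from parts of the vessel tree were compared between the types in 3 lists, which does not place the endothelial cells along the tree. Of 9 capillary genes all were tested, and limma called 6 in the endothelial direction, beside 5.17% of all genes, with Mfsd2a also called by edgeR. Mfsd2a, Tfrc, Slc16a1, Slc7a5 and Slc22a8 are also in the barrier list, so this count in part repeats that one. Of 13 arterial genes 4 and of 10 venous genes 5 were tested. In each list limma called 1 in endothelial and 1 in mural cells, beside 5.17% and 1.25% of all genes. The mural sums stood above without overlap for 2 genes of each list and the endothelial sums for 1, beside 9.27% and 4.14% of all genes. Gja4, a connexin of arterial endothelium and of mural cells, was higher in mural sums, at 284.6, 234.3, 48.2 and 388.9 against 995, 1325, 1072 and 1052 CPM (limma adjusted p = 0.00046). Slc38a5, a glutamine carrier of veins, was at 792, 3.14, 615 and 705 CPM in the endothelial sums, its value in 2C standing far under the others and below the highest mural sum, and at 0, 0, 0 and 22.7 CPM in the mural sums (limma adjusted p = 0.00014).

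The regions were compared within this contrast. Endothelial cells made up 25%, 20%, 11.1% and 20.3% of the vascular cells in 1C, 2C, 1H and 2H, with Wilson 95% intervals of 13.8 to 41.1%, 7.05 to 45.2%, 5.19 to 22.2% and 12.04 to 32.3%. The mean was 22.5% in cortex and 15.7% in hippocampus, and the difference, -6.77 percentage points, had an exact two-sided permutation p of 0.667 where the smallest possible is 0.333. With all typed cells as the denominator the difference turned to 0.66 percentage points. No gene had a type difference that differed between regions at an adjusted p under 0.05 in edgeR (0% of 8478), with 75 genes at an unadjusted p under 0.05 and 680 calls by DESeq2. Those 75 are a smaller share of the genes than the threshold itself. With so few suspensions per region the edgeR test could hardly call a gene, so the lack of calls does not show that the regions agree. Among the 5 genes with the smallest interaction p were Slco1a4, Slc6a6, Tspan13 and Wfdc1 (adjusted p = 0.52 for Slco1a4 and Slc6a6 and 1 for the other two). Tspan13, a tetraspanin, had 1274, 659, 1595 and 1540.0 CPM in endothelial and 0, 0, 16.5 and 26.2 CPM in mural sums, and Wfdc1 had 596, 283.8, 1348 and 551 against 0, 0, 32.5 and 15.2 CPM. The cortical mural sums hold 27 and 12 cells and the hippocampal ones 48 and 47, and the 5 mural cells above 25% of the endothelial median of the endothelial list were all from hippocampus, 1 from 1H and 4 from 2H. The part of these cells in these genes was not tested.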

How the data were processed

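Each deposited file holds the raw counts of 1 cell: the authors mapped reads with STAR 2.5.2b to GRCm38.p5 with the ERCC sequences and counted unique reads per gene with HTSeq, without pooling or normalization. Whether counting used strand is not given in the sources used here, so reads of overlapping and antisense genes may not be told apart. Cell types came from the authors' list, whose copy used here lacks 33 cells of 1C and gives 15 cells no type. The 30 endothelial and 134 mural cells (164 in all) were kept without further filters or doublet calling, and rows without a gene were left out. Counts were summed per type and suspension (8 sums) and tested with edgeR 4.0.16 in R 4.3.3 (TMM, filterByExpr with a minimum count of 10, robust quasi-likelihood fit, suspension as a block, Benjamini-Hochberg over 8478 genes). Limma 3.58.1 was run on mean log2(CPM + 1) per sum with the same block, and DESeq2 1.42.0 as an alternative. Named genes are the markers, members of 40 gene lists, called genes first with their ligand or receptor partners, up to 15 called genes outside the lists per direction, and the 5 genes with the smallest interaction p. A few genes that these rules name are not reported here. Members and lists were chosen with earlier results of these data known. The smallest two-sided p of a sign-flip test with 4 pairs is 0.125. Intervals and floors (3 counts) cover counting error only. Normalization, filter, test, block, thinning to 50000 counts, and leaving out suspensions or cells were varied. A count table of the whole series with the same cells was not used.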

Additional observations from a re-analysis of the deposited data

Results flagged for a closer look

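For some named genes 1 of the 4 sums of a type stood far from the other 3, by Dixon's criterion for 4 values, a gap to the nearest sum that is large against the whole range. This was seen in 32 groups of sums, 12.3% of those examined. The limit is passed by about 1 in 20 sets of 4 values from a normal distribution. Many of these sums are at or near 0 and do not follow it, so the 12.3% cannot be read as an excess. In the endothelial sum of 1C this held for Plvap (3.21 CPM). In the endothelial sum of 1H this held for Foxf2 (500.5 CPM), Ldha (420.1 CPM), Lef1 (370.95 CPM). In the endothelial sum of 2C this held for Itga4 (152.5 CPM), Lamc3 (185.4 CPM), Slc16a1 (338.8 CPM), Slc3a2 (917 CPM). In the endothelial sum of 2H this held for Itga8 (55.9 CPM). In the mural sum of 1C this held for Acta2 (2352 CPM), Cavin1 (1280.3 CPM), Itga6 (0.0314 CPM), Mfng (0.0314 CPM), Nr2f2 (384.3 CPM), Pdgfb (34.8 CPM), Tfrc (78.2 CPM). In the mural sum of 1H this held for Angpt1 (32.4 CPM), Foxf2 (211.5 CPM), Pecam1 (59.4 CPM), S1pr1 (26.1 CPM), Slc40a1 (83.8 CPM), Sox17 (102.9 CPM). In the mural sum of 2C this held for Aldoa (2539.7 CPM), Ly6e (140.3 CPM), Pdgfrb (3311 CPM). In the mural sum of 2H this held for Acvrl1 (65.7 CPM), Lama5 (35.9 CPM), Nebl (0.0431 CPM), Ocln (24.5 CPM), Slc16a1 (24.6 CPM), Slc38a5 (22.7 CPM), Vwf (0.194 CPM). Many of these groups are near 0 in the other 3 sums, with reads from few cells, and no explanation was tested.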

How the results depend on the processing

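EdgeR with suspension as a block called 0.330% of the genes tested (0.189% endothelial, 0.142% mural). DESeq2 called 26.02% (5.51% endothelial, 20.5% mural), limma 6.42% (5.17% endothelial, 1.25% mural), cells thinned to 50000 counts 1.94% (1.10% endothelial, 0.843% mural), the fit with no replicate block 1.09% (0.531% endothelial, 0.554% mural), the fit with a region term in place of the block 0.743% (0.377% endothelial, 0.366% mural), and the fit without robust dispersions 0.201% (0.130% endothelial, 0.0708% mural). The suspensions pair the types because both were sorted from the same animal or pool. Without a low-count filter 0.123% were mural calls. Leaving out 1 suspension gave 0 to 0.0809% called, 0 to 0.0809% in the endothelial and 0 in the mural direction, and 0 genes had an adjusted p under 0.01. The share was 0.147% (0.122% endothelial, 0.0244% mural) without cells rich in astrocyte genes and 1.13% (0.306% endothelial, 0.820% mural) with both types limited at 10% of the other list. With 25%, limits chosen after seeing the data, it was 0.431% (0.0673% endothelial, 0.363% mural) when applied to endothelial cells and 0.461% (0.0949% endothelial, 0.366% mural) when applied to both. DESeq2 size factors, TMMwsp, the stricter filter and a minimum of 2-fold kept the count within 1.5 times. The median log2 fold change was -1.18 with TMM, -1.05 with DESeq2 size factors and -4.82 without the 13 wells. For the region interaction DESeq2 called 8.02% of genes and the thinned cells 0.0318%, and every other fit 0. Without the 13 wells the mean difference in genes detected was 19.1% of the mural median and 0.20 in the log2 ratio to the ERCC counts. The endothelial share, hippocampus minus cortex, was 0.66 percentage points with all typed cells as the denominator. Of 2316 alternative values for the named genes, 1813 kept their direction and side of the threshold and 49 changed direction, none of them for a gene called by edgeR with that block. The log2 fold change turned with both limited at 10% for Cavin1 (-0.23), Dll4 (-0.78), Dusp1 (-1.38), Eno1 (-0.15), Epas1 (-0.49), Ets1 (-0.67), Foxf2 (-0.70), Hes1 (-0.9997), Lef1 (-4.25), Sparc (-0.091), Tjp1 (-0.58), Tpm1 (-0.91), Tpm4 (-0.25), without cells rich in astrocyte genes for Cdh2 (0.56), Tbx18 (0.036), with both types limited at 25% for Dusp1 (-0.12), Epas1 (-0.16), Ets1 (-1.75), Foxf2 (-2.27), Hes1 (-1.52), Sparc (-0.23), Tpm1 (-0.67), without the 13 wells for Dusp1 (-0.18), Epas1 (-0.21), Ets1 (-1.83), Foxf2 (-2.25), Hes1 (-1.56), Sparc (-0.25), Tpm1 (-0.71), with DESeq2 size factors for Foxc1 (0.077), in DESeq2 for Foxc1 (0.078), in thinned cells for Foxc1 (0.088), in limma for Foxc1 (1.13), Slc22a8 (1.35), Tbx18 (0.055), with a region term in its place for Foxc1 (0.036), without the replicate block for Foxc1 (0.56), and without the filter for Foxf2 (-0.012). With 1 suspension left out it took both signs for Dll4 (-1.53 to 3.34), Ets1 (-0.10 to 0.26), Foxc1 (-1.36 to 1.26), Foxf2 (-0.33 to 0.37), Slc22a8 (-0.57 to 0.14), Tpm1 (-0.26 to 0.75). The cause of these changes was not tested.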
